A study of Mus musculus with 16 samples.

Results

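Levels of 10 genes that mark injured epithelium and bile ducts were examined in the liver and kidney of aged mice after a long period of circadian disruption. The genes were Havcr1, Vcam1, Krt7, Krt8, Krt18, Krt19, Spp1, Clu, Sox9 and Cd24a, taken by symbol from the 32989 genes of each organ's table, and each symbol had 1 row. The mice were male C57BL/6J, 97 weeks old, and had spent 85 weeks in either a fixed light and dark cycle (LD) or a cycle that was advanced by 8 h once every 4 days (ADV). Liver and kidney came from the same 4 LD-conditioned mice (L63, L65, L86 and L104) and the same 4 ADV-conditioned mice (A75, A91, A94 and A115), which gave 16 libraries of poly(A) RNA. The labels name no altered gene and no agent in either condition. Whole organs hold many cell types, and fewer cells of a type and less RNA per cell cannot be told apart in them.

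Simple epithelia build their intermediate filaments from paired keratins. Hepatocytes use Krt8 and Krt18, whereas cholangiocytes and the lining of renal collecting ducts add Krt7 and Krt19, and cholangiocytes also carry Sox9, Spp1 and Cd24a. An injured proximal tubule places the phosphatidylserine receptor encoded by Havcr1 (KIM-1) on its surface and engulfs debris with it, while Vcam1 marks tubule cells that have failed to repair. In the injured liver, cells with biliary markers can multiply in a ductular reaction.

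The kidney libraries held 17.1 to 19.7 M (mega) fragments and the liver libraries 22.7 to 26.3 M. Levels are given as FPKM, in which fragments are scaled to the exon length and the library size, so that genes can be compared per length. At an exon length of 1 kb, a fragment is worth 0.0508 to 0.0584 FPKM in a kidney and 0.0380 to 0.0440 FPKM in a liver. Of the kidneys, A115 stood apart, with 33.8% of its gene fragments on mitochondrial genes against 9.43% to 18.02% in the other kidneys. Its mean correlation with the rest was 0.799, against 0.917 to 0.952 for the other kidneys. Of the livers, A94 had the lowest mean correlation with the rest (0.942). A94 also had the highest summed level of the B and T lymphocyte markers in both organs, 76.2 FPKM in the liver and 87.6 in the kidney, against at most 10.6 elsewhere. The 10 hepatocyte markers summed to between 60205 and 73864 FPKM in the livers and to between 1101 and 1478 FPKM in the kidneys, where Cyp2e1, Fah and Hnf4a made up most of the sum and Cps1 was at 0. The 10 proximal tubule markers summed to between 20683 and 46919 FPKM in the kidneys and to between 32.1 and 40.3 FPKM in the livers, nearly all of it Aqp1, with Slc34a1, Slc5a12, Slc22a6 and Kap at 0. A pair of sequencing providers was used, and which library came from which is not given in the sources used here. A sequencing batch can therefore be told apart neither from the condition nor from the organ.

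The organs ranked these genes differently. In the kidney the order of the mean levels was Spp1, Clu, Cd24a, Krt8, Krt7, Havcr1, Vcam1, Krt18, Krt19 and Sox9, from 2608 FPKM for Spp1 to 1.04 FPKM for Sox9 (n = 8). Neighbours in this order overlapped across mice. In the liver the order was Clu, Krt8, Krt18, Spp1, Vcam1, Cd24a, Krt19, Krt7, Sox9 and Havcr1, from 677 FPKM for Clu to 0.0350 FPKM for Havcr1. Only Clu and Krt8, and Sox9 and Havcr1, were neighbours without overlap in the liver.

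Between organs, 7 of the 10 genes differed in a limma fit of all 16 libraries on the log2(FPKM + 0.1) scale (Benjamini-Hochberg adjusted p under 0.05), and 75.1% of all 14968 genes tested also passed. Of the 7, Havcr1, Krt7, Spp1, Cd24a and Krt19 were higher in the kidney, and 61.9% of all genes were. Krt18 and Clu were lower in the kidney, as were 13.2% of all genes. A share of 7 in 10 is close to that of all genes. The median difference of all genes was 0.75 log2 units as deposited and 0.034 after scaling by the median ratio, and that scaling changed the split of all called genes from 9266 higher and 1969 lower in the kidney to 5181 higher and 4645 lower. Relative to that shift the large differences remained called, while Krt8 became lower in the kidney (−1.11 log2 units, adjusted p = 4.75e-05) and Krt19 no longer passed (0.84 log2 units, adjusted p = 0.192).

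Krt7, the keratin of ducts and collecting ducts, was 50.5 ± 26.2 FPKM (SD, n = 8) in the kidney and 0.902 ± 0.637 FPKM in the liver, a difference of 5.73 log2 units (SE 0.31, adjusted p = 1.82e-10). Spp1, which encodes the secreted phosphoprotein osteopontin, was 2608 ± 3054 FPKM in the kidney and 50.9 ± 77.5 FPKM in the liver, a difference of 5.56 log2 units (SE 0.63, adjusted p = 1.17e-06). Cd24a, which encodes a small lipid-anchored surface glycoprotein, was 177 ± 88.4 FPKM in the kidney and 6.47 ± 7.74 FPKM in the liver, a difference of 5.37 log2 units (SE 0.40, adjusted p = 7.71e-09). For these 3 genes every kidney lay above every liver, the closest pair being the lowest kidney (563 FPKM) and the highest liver (242 FPKM) of Spp1.

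Clu, the gene of the secreted chaperone clusterin, went the other way, with 297 ± 239 FPKM in the kidney and 677 ± 101 FPKM in the liver (−1.53 log2 units, SE 0.35, adjusted p = 0.00102). The kidney of A75, at 779 FPKM, nevertheless lay inside the liver range of 505 to 822 FPKM. Krt18 was 18.6 ± 9.79 FPKM in the kidney and 74.1 ± 23.9 FPKM in the liver (−2.07 log2 units, SE 0.22, adjusted p = 6.56e-07). Its partner Krt8 was 62.6 ± 28.7 FPKM in the kidney and 75.4 ± 22.4 FPKM in the liver and was not called (−0.34 log2 units, SE 0.24, adjusted p = 0.217). The ratio of Krt8 to Krt18 was 0.823 to 1.26 in the livers and 1.65 to 4.69 in the kidneys, so that the ranges did not overlap. Within the kidneys it was 3.92 to 4.69 in LD and 1.65 to 3.77 in ADV, lower in all 4 ADV kidneys than in every LD kidney, whereas the conditions overlapped in the liver. This split of the ratio by condition was noticed after the values were seen and has no test here. The ratio of Krt7 to Krt19 was 5.39 to 15.5 in the kidneys and 0.119 to 0.913 in the livers.

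Krt19, a small keratin without a tail domain, was 6.41 ± 4.25 FPKM in the kidney and 3.27 ± 4.80 FPKM in the liver (1.59 log2 units, SE 0.58, adjusted p = 0.0227). It missed the threshold without L63, L65, L86 or A94, with adjusted p of 0.0540, 0.0540, 0.0560 and 0.0923. Vcam1, the vascular cell adhesion molecule, was 19.7 ± 14.1 FPKM in the kidney and 9.77 ± 8.04 FPKM in the liver (0.91 log2 units, SE 0.44, adjusted p = 0.0712), and passed without A91 (0.0299) or A94 (0.0319) or without mitochondrial genes (0.0404). After scaling by the median ratio its difference was 0.14 log2 units (adjusted p = 0.781). Sox9, a transcription factor of duct cells and of regenerating tubules, was near 1 FPKM in both organs, 1.04 ± 1.01 FPKM in the kidney and 0.793 ± 0.270 FPKM in the liver (−0.066 log2 units, SE 0.45, adjusted p = 0.900). Krt8 passed without A75 (−0.55 log2 units, adjusted p = 0.0273). Havcr1 was detected in all 8 kidneys, and the livers of 6 mice held no fragment of it, which allows up to 0.0606 to 0.0689 FPKM by 3 fragments, counting error only. Its fitted difference moved between 4.26 and 7.44 log2 units with the pseudocount and the other settings and is no bound.

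**Figure D1:**
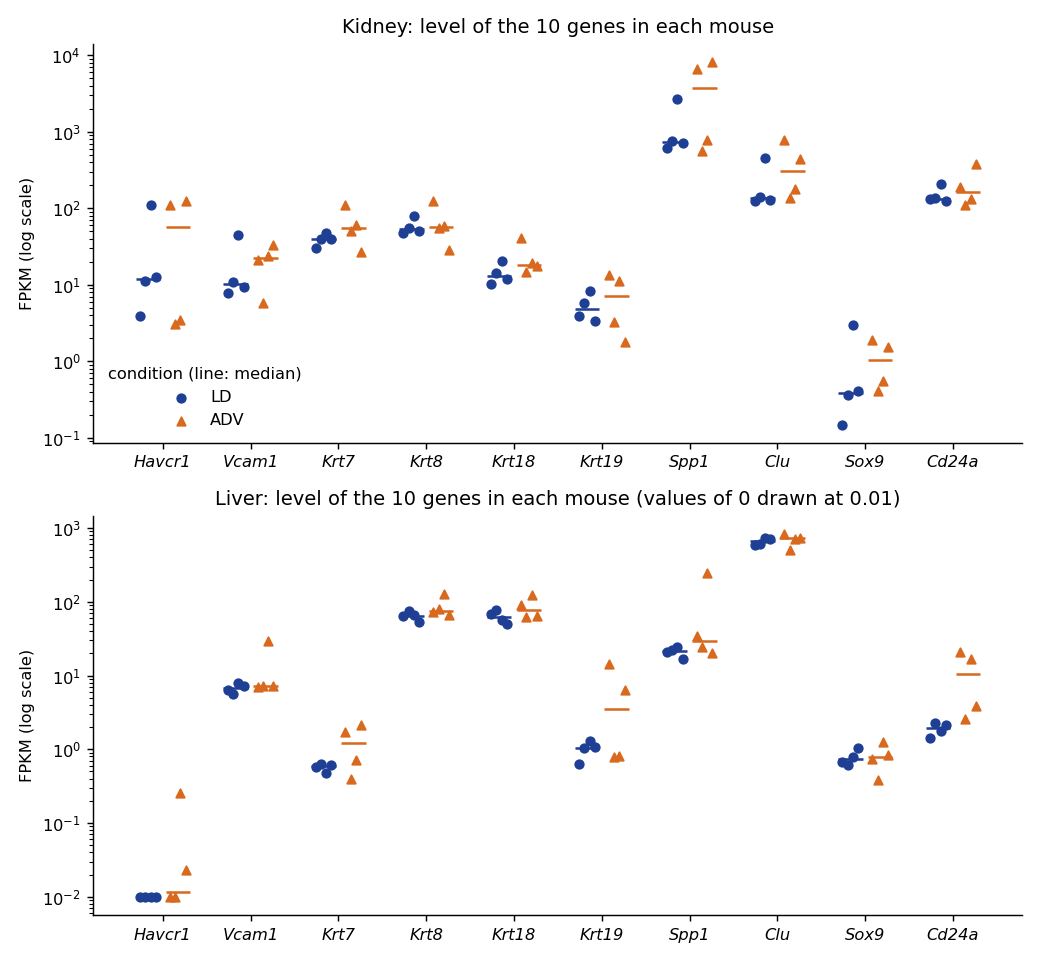
FPKM (log scale) of the 10 genes in the kidney (top) and the liver (bottom), with 1 point per mouse (LD circles, ADV triangles, n = 4 each) and lines at the medians. In the kidney, Havcr1, Spp1, Clu and Sox9 have high points in both conditions, and in the liver only Cd24a has groups that do not overlap.

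Krt7, Krt8 and Krt18 lie in the keratin cluster of mouse chromosome 15, and Krt8 and Krt18 stand head to head with 23873 bases between their starts, Krt8 on the minus strand (chr15:101996711-102004342) and Krt18 on the plus strand (chr15:102028216-102032026). Their promoters are shown because the genes sit side by side and yet differed in their ratio between the organs. Those of Krt7 and Spp1 are shown because, after Havcr1, their levels differed most between the organs. A window was found for Havcr1 as well but is not shown. Each run holds the 250 bases before the start of the deposited gene, 5′ to 3′ on the strand of the gene, from RefSeq promoters (GRCm38.p6), and capitals mark a match to one of 4 motifs searched on both strands.
Krt8 (chr15:102004343-102004592, minus strand): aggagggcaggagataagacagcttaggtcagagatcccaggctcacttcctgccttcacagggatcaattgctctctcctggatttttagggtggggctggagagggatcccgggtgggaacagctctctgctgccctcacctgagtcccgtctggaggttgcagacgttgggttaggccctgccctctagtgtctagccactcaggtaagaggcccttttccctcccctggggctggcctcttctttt
Krt18 (chr15:102027966-102028215, plus strand): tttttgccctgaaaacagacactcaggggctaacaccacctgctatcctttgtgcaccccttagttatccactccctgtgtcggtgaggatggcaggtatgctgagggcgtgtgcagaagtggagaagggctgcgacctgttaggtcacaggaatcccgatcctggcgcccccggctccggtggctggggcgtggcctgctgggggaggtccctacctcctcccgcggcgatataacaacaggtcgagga
Krt7 (chr15:101412153-101412402, plus strand): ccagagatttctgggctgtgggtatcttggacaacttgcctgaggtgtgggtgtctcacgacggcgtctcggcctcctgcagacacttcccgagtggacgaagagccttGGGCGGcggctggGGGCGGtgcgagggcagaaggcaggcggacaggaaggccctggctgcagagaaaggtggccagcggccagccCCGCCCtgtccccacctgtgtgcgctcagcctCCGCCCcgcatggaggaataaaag
Spp1 (chr5:104434861-104435110, plus strand): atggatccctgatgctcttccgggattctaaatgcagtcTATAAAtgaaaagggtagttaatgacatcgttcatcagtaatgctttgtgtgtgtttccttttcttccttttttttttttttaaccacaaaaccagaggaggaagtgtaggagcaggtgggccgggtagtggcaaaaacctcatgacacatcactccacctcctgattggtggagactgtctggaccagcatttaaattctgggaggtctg
The letters searched were CACGTG for the E-box, found in 6.02% of 32851 promoters of the same length, TGANTCA for the AP-1 site, found in 6.75%, TATAAA for the TATA box, found in 12.4%, and GGGCGG for the GC box, found in 32.7%. No match overlapped another in the windows shown. Krt7 held 4 GC boxes, which begin 141, 128, 56 and 24 bases before the start, and Spp1 held 1 match to the TATA letters, which begins 211 bases before it. These 4 sets of letters were not in the windows of Krt8 and Krt18. The GC content was 66% for Krt7, 60.4% for Krt18, 58% for Krt8 and 43.6% for Spp1. The GENCODE annotation lists a processed pseudogene of Krt8, and whether reads were shared with it was not tested.

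ADV was compared with LD in each organ to see whether long circadian disruption moved these genes. In the kidney, 0 of the 10 genes passed limma with adjustment over 14452 genes, 0 had an unadjusted p under 0.05, and limma-voom on the recovered fragments gave 0 and 0 as well. Over all genes, 0% were called and 3.10% had an unadjusted p under 0.05. These shares depended on A115, without which 18.8% of all genes were called. In that fit 0 of the 10 genes were called and 1 had an unadjusted p under 0.05. The log2 fold change was positive for all 10 genes as deposited, with a median of 0.42 against −0.024 over all genes, but 7 of 10 were positive without A75 and 7 of 10 when A115 was left out and the median ratio was used. On leaving out 1 mouse, the median of the 10 lay between 0.21 without L63 and 0.87 without L86. The groups of all 10 genes overlapped in the kidney, where 2.80% of all genes did not (0.962% higher in ADV).

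What the kidneys showed was a strong difference between mice within each condition. Havcr1 was 3.95, 11.1, 111 and 12.6 FPKM in L63, L65, L86 and L104, and 111, 3.07, 3.42 and 123 FPKM in A75, A91, A94 and A115. L86 of the LD condition and A75 and A115 of the ADV condition were thus at 9.35, 9.35 and 10.4 times the LD median, and the other 5 kidneys at or below 1.07 times. Between conditions the log2 fold change was 0.31 (SE 1.54, limma adjusted p = 0.99991, exact permutation p = 0.971), and it ranged from −0.57 without A115 to 1.25 without L86.

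Spp1 followed the same 3 kidneys. It was 605, 759, 2676 and 709 FPKM in L63, L65, L86 and L104, and 6636, 563, 786 and 8133 FPKM in A75, A91, A94 and A115. In A115 and A75 this 1 gene took 1.26% and 1.02% of all gene fragments and in L86 0.407%, against 0.0874% to 0.121% in the other 5 kidneys. For Spp1 the log2 fold change was 1.19 (SE 0.98, adjusted p = 0.99991, exact permutation p = 0.314), and it was 0.57 without A115 and 1.85 without A91. Of the 4 ADV kidneys, 2 lay above every LD kidney.

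Clu was 123, 141, 453 and 130 FPKM in L63, L65, L86 and L104, and 779, 135, 179 and 436 FPKM in A75, A91, A94 and A115. Its high kidneys were again L86, A75 and A115, at 3.34, 5.75 and 3.22 times the LD median. Between conditions the log2 fold change of Clu was 0.75 (SE 0.64, exact permutation p = 0.286), from 0.29 without A75 to 1.20 without L86. Sox9 was 0.149, 0.367, 3.01 and 0.412 FPKM in the LD kidneys and 1.88, 0.409, 0.551 and 1.56 FPKM in the ADV kidneys, in the same order of mice. These levels are low, from 12 to 214 fragments, and the LD kidney L86 was the highest. For Sox9 the log2 fold change was 0.64 (SE 0.81, exact permutation p = 0.543), and without L86 it was 1.39 (unadjusted p = 0.0452, adjusted p = 0.99995), without A75 0.32 and without L63 0.17.

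Cd24a was 131, 136, 209 and 123 FPKM in the LD kidneys and 192, 112, 133 and 378 FPKM in the ADV kidneys. A115, L86 and A75 were its 3 highest kidneys, as they were for Havcr1, Spp1, Clu and Sox9, which makes 5 of the 10 genes. Its log2 fold change was 0.31 (SE 0.38, exact permutation p = 0.657), and it turned to −0.044 without A115. Vcam1 was 7.82, 10.999, 45.3 and 9.40 FPKM in the LD kidneys and 21.0, 5.75, 24.1 and 33.4 FPKM in the ADV kidneys. It had A94 in place of A75 among its 3 highest kidneys, the highest of all being L86, and its log2 fold change was 0.35 (SE 0.70, exact permutation p = 0.629), from 0.044 without A115 to 0.92 without L86.

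**Figure D2:**
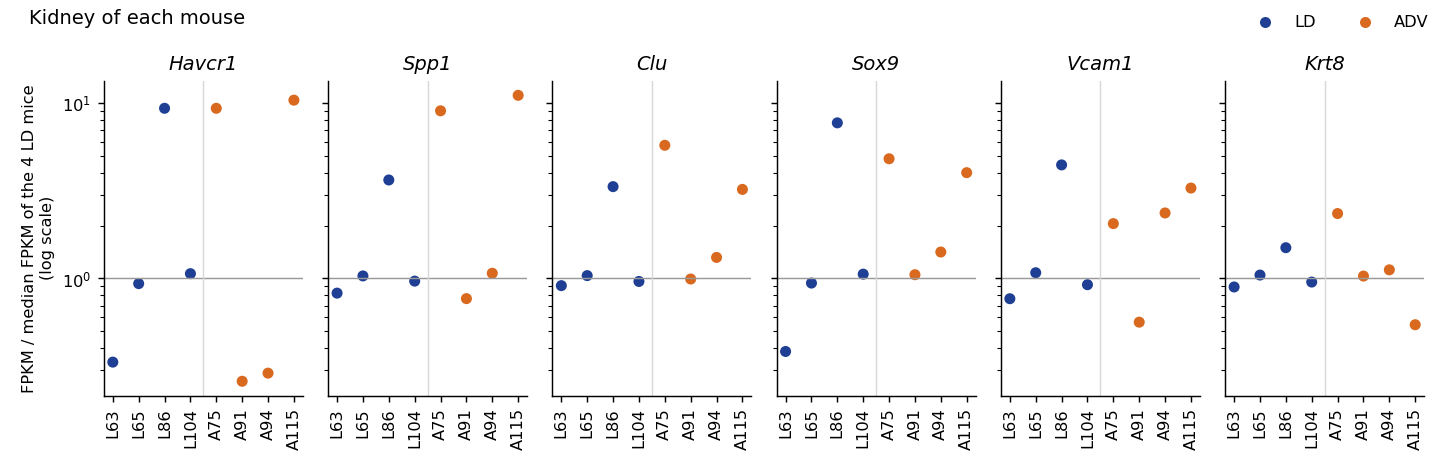
Level of 6 genes in the kidney of each mouse divided by the median of the 4 LD kidneys (log scale), LD blue and ADV orange, with a line at 1. Havcr1, Spp1, Clu and Sox9 stand high in L86, A75 and A115, whereas Krt8 is lowest in A115.

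The keratins ordered the kidneys in another way. Krt8, the type II keratin of simple epithelia, was 47.5, 55.5, 79.5 and 50.6 FPKM in L63, L65, L86 and L104, and 125, 54.8, 59.4 and 28.9 FPKM in A75, A91, A94 and A115. Krt7 was 30.4, 39.6, 48.1 and 39.3 FPKM in the LD kidneys and 110, 49.9, 60.7 and 26.7 FPKM in the ADV kidneys. A75 was the highest kidney for both, and A115, which was among the highest for Havcr1 and Spp1, was the lowest. Krt7 lay above every LD kidney in 3 of 4 ADV kidneys, with a log2 fold change of 0.49 (SE 0.39, exact permutation p = 0.314). Without A75 its log2 fold change was 0.16, and without A115 it was 0.83 (adjusted p = 0.0573), in a fit in which 18.8% of all genes were called.

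Krt18, the type I partner of Krt8, was 10.1, 14.1, 20.3 and 11.7 FPKM in the LD kidneys and 41.2, 14.5, 19.1 and 17.5 FPKM in the ADV kidneys. All 4 ADV kidneys lay above the LD mean on the log2 scale, yet only A75 lay above L86. Its log2 fold change was 0.63 (SE 0.36, unadjusted p = 0.112, exact permutation p = 0.171), from 0.32 without A75 to 0.83 without L86. Krt19 was 3.95, 5.75, 8.34 and 3.34 FPKM in the LD kidneys and 13.6, 3.22, 11.3 and 1.78 FPKM in the ADV kidneys, so that its highest kidneys and its lowest kidneys were all of the ADV condition. For Krt19 and Krt8 the log2 fold changes were 0.12 (SE 0.66) and 0.036 (SE 0.41), and both turned negative without A75 (−0.31 and −0.33).

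Other genes known from injured tubules were described with a list of 18. All 18 were tested in the kidney, 0 were called and 0 had an unadjusted p under 0.05, and 16 had a positive and 2 a negative log2 fold change (median 0.38). The median was 0.23 without A75 and 0.63 without L86. The 3 with the smallest p were Tnc, an extracellular matrix glycoprotein, Vim, the intermediate filament of mesenchymal and injured cells, and Lcn2, a secreted iron carrier known as an injury marker. Lcn2 was 11.4, 19.2, 54.9 and 16.8 FPKM in L63, L65, L86 and L104, and 191, 12.0, 21.5 and 141 FPKM in A75, A91, A94 and A115 (log2 fold change 1.27, SE 0.95, adjusted p = 0.99991). L86, A75 and A115 were its 3 highest kidneys as well. This did not hold for Tnc, whose 3 highest kidneys were A75, A94 and L86, or for Vim, with A94, A75 and A115. The log2 fold changes were 0.65 for Tnc (SE 0.35) and 0.62 for Vim (SE 0.35). Without A115, 1 of the 18 genes was called and 3 had an unadjusted p under 0.05, all higher in ADV. In that fit 18.8% of all genes were called, and 4269 of 14475 were higher at an unadjusted p under 0.05.

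Of the 15 duct markers beside the members, 14 were tested in the kidney and 0 were called, with 9 positive and 5 negative log2 fold changes and a median of 0.12. Without A75 the median was −0.0014, with 7 positive and 7 negative, and without L86 it was 0.29. The 3 with the smallest p were the tetraspanin gene Tspan8 (0.55, SE 0.24), the adhesion gene Epcam (0.32, SE 0.18) and the annexin gene Anxa13 (−0.37, SE 0.32). Tspan8 was 29.3, 28.3, 42.8 and 27.1 FPKM in the LD kidneys and 51.5, 33.2, 41.2 and 63.2 FPKM in the ADV kidneys. None of the 3 passed an unadjusted p of 0.05, the smallest being 0.0509 for Tspan8.

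The markers of other kidney cells also varied between mice, and their part in these results was not tested. Of the 10 proximal tubule markers, Kap, an androgen-regulated gene, ran from 16595 FPKM in A75 to 45922 FPKM in A115 and made up most of their sum. The other 9 summed to 998 FPKM in A115 and to between 3285 and 4781 FPKM in the other 7 kidneys, and 8 of the 9 were lowest in A115. Among the 10 markers of the loop of Henle, distal tubule and collecting duct, Umod, which encodes uromodulin, was highest in A75 (2282 FPKM) and lowest in A115 (818 FPKM). The other 9 summed to 449 FPKM in A115, 852 in A75, 1010 in A94, 1001 in A91 and 677 to 826 in the LD kidneys. Of the 8 urothelial markers of the renal pelvis, Krt20, which is also on the tubular injury list, was 15.4 FPKM in L86 and at most 3.23 FPKM elsewhere. The other 7 summed to 23.0 FPKM in A75 and 29.4 in A94, to 13.2 in L86, and to between 6.88 and 15.5 FPKM in the other 5. A115, the lowest kidney for Krt7, Krt8 and Krt19, was thus the lowest for these sums as well. The 10 macrophage markers, of which Clec4f was at 0, summed to between 75.4 and 238 FPKM in the LD kidneys and between 79.2 and 691 FPKM in the ADV kidneys, with A94, A75 and L86 highest. The 10 stellate cell, fibroblast and pericyte markers summed to between 54.9 and 89.7 FPKM in the LD kidneys and to 153, 64.7, 183 and 140 FPKM in A75, A91, A94 and A115. Of these 10 genes 0 were called and 3, the fibrillar collagen genes Col1a1, Col1a2 and Col3a1, had an unadjusted p under 0.05, all higher in ADV. Over all genes 3.10% did in either direction, and 253 of 14452 were higher in ADV. Without A75 the count was 1 of the 10. Without A115 it was 6, all higher, with 1 called, in a fit in which 4269 of 14475 genes were higher at an unadjusted p under 0.05 and 18.8% were called.

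In the liver, 9 of the 10 genes had enough fragments to be tested, and 0 of the 9 passed limma with adjustment over 12835 genes, against 0.00779% of all genes. At an unadjusted p under 0.05 it was 1 of 9, Cd24a, against 11.8% of all genes, and limma-voom also gave 0 and 1. The log2 fold change was positive for 8 of the 9, with a median of 0.60, whereas over all genes 65.7% were positive with a median of 0.096. After scaling by the median ratio it was positive for 7 of the 9, and the genes with an unadjusted p under 0.05 were split into 841 higher and 860 lower in ADV, in place of 1110 and 402. Without A94 the median of the members was 0.20.

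Cd24a was 1.44, 2.29, 1.78 and 2.12 FPKM in L63, L65, L86 and L104, and 20.8, 2.57, 16.9 and 3.87 FPKM in A75, A91, A94 and A115. Every ADV liver lay above every LD liver, and Cd24a was the 1 member of which this held, whereas the groups of 8.84% of all genes tested did not overlap (6.94% higher in ADV). A75 and A94 were at 10.7 and 8.66 times the LD median, A115 at 1.99 times and A91 at 1.32 times. For Cd24a the log2 fold change was 1.98 (SE 0.61, unadjusted p = 0.00950, adjusted p = 0.326), and the exact permutation p was 0.029, the smallest that 4 mice against 4 allow. The adjusted p lay between 0.107 and 0.642 over the 17 alternatives, and the unadjusted p was under 0.05 in 17 of the 17.

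Krt19 and Krt7 were high in the livers of A75 and A115. Krt19 was 0.638, 1.05, 1.29 and 1.07 FPKM in L63, L65, L86 and L104, and 14.2, 0.786, 0.815 and 6.31 FPKM in A75, A91, A94 and A115. A75 and A115 were thus at 13.4 and 5.97 times the LD median, while A91 and A94 lay below all LD livers but L63. Between conditions the log2 fold change of Krt19 was 1.44 (SE 0.83, adjusted p = 0.489, exact permutation p = 0.371), and it was 0.68 without A75, 2.001 without A94 (unadjusted p = 0.0252) and 2.02 without A91 (0.0330), with adjusted p of 0.278 and 0.259 for the latter pair. Krt7 was 0.583, 0.630, 0.470 and 0.608 FPKM in the LD livers and 1.69, 0.398, 0.711 and 2.12 FPKM in the ADV livers. Its ADV livers held both the lowest value, in A91, and the 3 highest, and the log2 fold change was 0.75 (SE 0.43, adjusted p = 0.488, exact permutation p = 0.286), from 0.42 without A115 to 1.14 without A91 (unadjusted p = 0.00829, adjusted p = 0.178). At levels this low, from 14.5 to 77.5 fragments, the pseudocount makes the log2 fold change smaller than the ratio of the FPKM.

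Vcam1 and Spp1 were high in the liver of A94. Vcam1 was 6.38, 5.63, 7.81 and 7.22 FPKM in the LD livers, and 6.93, 7.27, 29.6 and 7.31 FPKM in A75, A91, A94 and A115. A94 alone lay outside the LD range, and the log2 fold change of 0.60 (SE 0.42, adjusted p = 0.550) became 0.095 without it. Spp1 was 21.0, 22.2, 24.8 and 16.9 FPKM in the LD livers and 34.8, 24.7, 242 and 20.4 FPKM in the ADV livers. A94 was at 11.2 times the LD median and A75 at 1.61 times, and the log2 fold change of 1.11 (SE 0.67, adjusted p = 0.499) became 0.31 without A94. Havcr1 was at 0 in all 4 LD livers and in A75 and A91, with 11 fragments in A94 (0.257 FPKM) and 1 fragment in A115 (0.0229 FPKM), and it was not tested.

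The hepatocyte keratins varied less between livers than the duct keratins. Krt8 was 63.8, 75.3, 65.5 and 53.5 FPKM in the LD livers and 73.4, 78.7, 127 and 65.5 FPKM in the ADV livers, and Krt18 was 67.3, 77.5, 56.6 and 50.2 FPKM in the LD livers and 89.2, 62.4, 125 and 64.5 FPKM in the ADV livers. A94 was the highest liver for both. The log2 fold changes were 0.38 for Krt8 (SE 0.20, adjusted p = 0.467) and 0.40 for Krt18 (SE 0.23, adjusted p = 0.487), and without A94 they were 0.17 and 0.20. Clu was 583, 614, 731 and 708 FPKM in the LD livers and 822, 505, 720 and 731 FPKM in the ADV livers, which made it the steadiest of the 10, with a highest liver 1.63 times the lowest. Its log2 fold change was 0.060 (SE 0.16, adjusted p = 0.889). Sox9 was 0.676, 0.607, 0.780 and 1.04 FPKM in the LD livers and 0.748, 0.386, 1.27 and 0.838 FPKM in the ADV livers, with a log2 fold change of −0.013 (SE 0.31, adjusted p = 0.988).

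**Figure D3:**
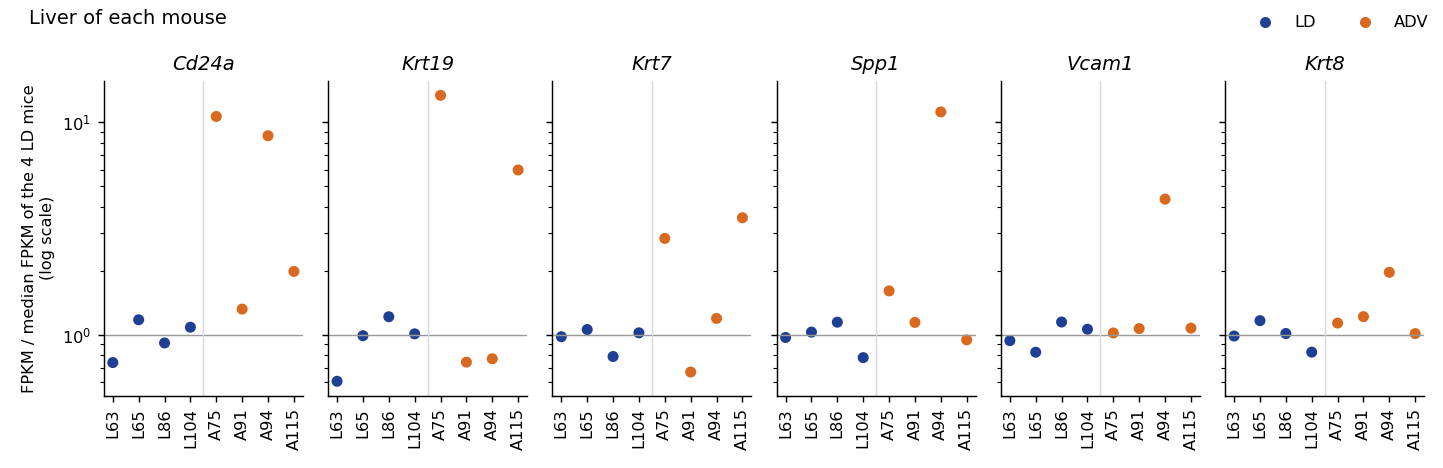
Level of 6 genes in the liver of each mouse divided by the median of the 4 LD livers (log scale), LD blue and ADV orange, with a line at 1. Krt19 and Krt7 stand high in A75 and A115, Spp1 and Vcam1 in A94, and Cd24a in A75 and A94.

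Of the 15 duct markers beside the members, 9 were tested in the liver, 0 were called and 3 had an unadjusted p under 0.05, all higher in ADV, as did 8.65% of all genes. Among the 9, 7 had a positive and 2 a negative log2 fold change (median 1.09), and without A75 the median was 0.50 and 1 had an unadjusted p under 0.05. The 3 were Tspan8 (1.41, SE 0.50, adjusted p = 0.366), Epcam (1.16, SE 0.44, adjusted p = 0.384) and Cdh1, the gene of E-cadherin (1.09, SE 0.46, adjusted p = 0.412). Epcam was 0.458, 0.257, 0.473 and 0.398 FPKM in the LD livers and 2.12, 0.411, 1.55 and 0.652 FPKM in A75, A91, A94 and A115. Epcam thus followed Cd24a in having A75 and A94 as its highest livers and A91 as its lowest ADV liver. The 15 markers summed to 27.4 FPKM in A75, 14.3 in A94 and 12.8 in A115, against 6.66 in A91 and 7.01 to 7.85 in the LD livers.

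Of the 18 tubular injury genes, many of which serve repair in other epithelia too, 16 were tested in the liver and 0 were called. An unadjusted p under 0.05 was found for 8, all higher in ADV (8.65% of all genes), and 15 of 16 log2 fold changes were positive (median 0.86). The 3 with the smallest p were Anxa2, a membrane-binding annexin (1.03, SE 0.28, adjusted p = 0.296), Cp, the gene of the copper carrier ceruloplasmin (0.51, SE 0.14, adjusted p = 0.306), and S100a6, a calcium-binding protein gene (1.94, SE 0.55, adjusted p = 0.306). S100a6 was 1.43, 1.93, 2.10 and 2.02 FPKM in the LD livers and 9.93, 1.93, 18.3 and 8.34 FPKM in A75, A91, A94 and A115. A91 stayed within the LD range, and the other ADV livers lay above it. Without A94 the median was 0.48 and 13 of 15 were positive.

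Markers of other liver cells varied between the livers as well, and their part in these results was not tested. The 10 macrophage markers summed to between 181 and 266 FPKM in the LD livers and to 329, 257, 756 and 272 FPKM in A75, A91, A94 and A115, so that the groups overlapped. Of these 10 genes 0 were called and 6 had an unadjusted p under 0.05, all higher in ADV (8.65% of all genes). All 10 log2 fold changes were positive (median 0.77, and 0.41 without A94). The 10 stellate cell and fibroblast markers summed to between 125 and 142 FPKM in the LD livers. In the same ADV livers they summed to 221, 170, 371 and 208 FPKM, each above every LD liver. Most of each sum was Dcn, with a mean of 112 FPKM in the LD livers and 177 FPKM in the ADV livers. A91 stood clear of the LD livers mainly through Dcn, at 147 FPKM against 119 FPKM in L65, the highest LD liver. Among single genes, 6.94% of all tested had every ADV liver above every LD liver. Of the 10 stellate cell and fibroblast markers, too, 0 were called and 6 had an unadjusted p under 0.05, all higher in ADV. All 10 log2 fold changes were positive (median 0.74). Without L86, 3 of the 10 had an unadjusted p under 0.05. The lymphocyte markers, of which 9 of 10 were in the table, summed to between 2.53 and 3.65 FPKM in the LD livers and to 76.2 FPKM in A94, with 3.41 to 5.02 FPKM in the other ADV livers. The 10 endothelial markers summed to between 36.3 and 45.8 FPKM in the LD livers and between 39.0 and 69.1 FPKM in the ADV livers. The 10 hepatocyte markers summed to between 60357 and 73864 FPKM in the LD livers and between 60205 and 69180 FPKM in the ADV livers. The 8 urothelial markers summed to at most 2.63 FPKM in any liver, and the 10 markers of the distal nephron to between 0.0323 and 0.195 FPKM in 7 livers and to 1.91 FPKM in A94, of which Umod was 1.33 FPKM. A94 was also the liver with 11 fragments of Havcr1.

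**Figure D4:**
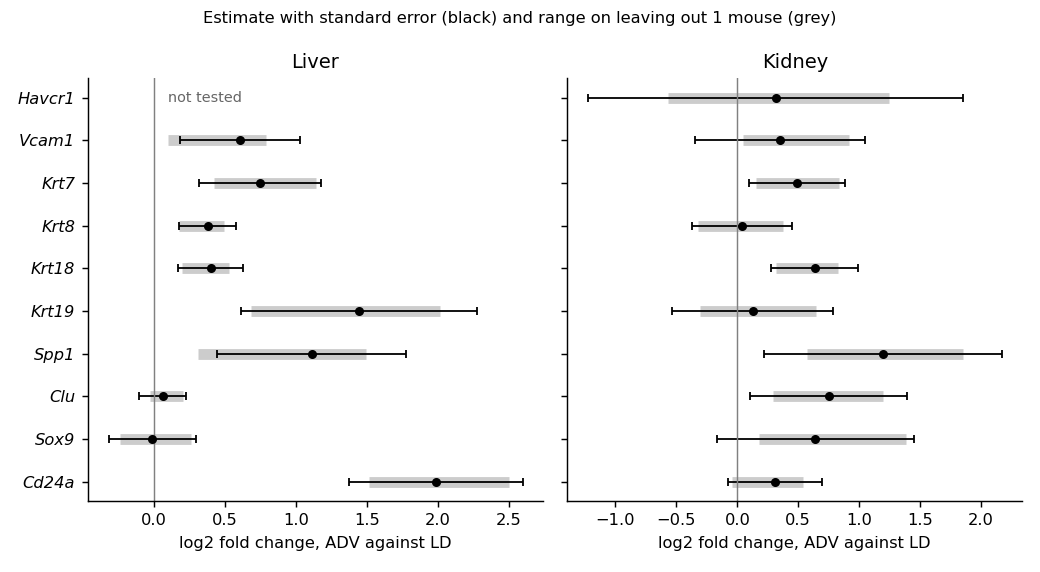
Log2 fold change of ADV against LD on the log2(FPKM + 0.1) scale with its standard error (black, limma, n = 4 against 4) and its range when each mouse in turn was left out (grey), for the liver and the kidney. The range of Cd24a in the liver stays between 1.51 and 2.501, whereas that of Havcr1 in the kidney goes from −0.57 to 1.25.

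Whether the effect of ADV differed between organs was tested with the interaction in the fit of all 16 libraries. Of the 10 genes 0 were called and 0 had an unadjusted p under 0.05, against 0% and 3.71% of all 14968 genes. Without A115, 0 of the 10 were called, against 2.74% of all genes. With the mouse as a replicate block, 0 were called and 1, Cd24a, had an unadjusted p under 0.05, as it did without A91 or A115. For Cd24a the kidney effect minus the liver effect was −1.68 log2 units (SE 0.79, unadjusted p = 0.0527, adjusted p = 0.99996), and it lay between −1.15 without A94 and −2.35 without A115 (unadjusted p = 0.00749, adjusted p = 0.0961). For Krt19 it was −1.32 (SE 1.16), for Clu 0.69 (SE 0.70) and for Sox9 0.65 (SE 0.91), and for the other 6 it lay between −0.34 and 0.24.

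For Krt19, Krt7, Spp1 and Cd24a, the kidneys and livers with high levels did not belong to the same set of mice. Clu had A75, A115 and L86 as its 3 highest mice in both organs, and Vcam1 had L86, A115 and A94. In the liver, though, only A94 lay outside the LD range of Vcam1. A75 was high in both organs for Krt19, Krt7 and Cd24a, A115 was high for Krt19 and Krt7 in the liver and lowest for both in the kidney, and L86, among the 3 highest kidneys for 9 of the 10 genes, stayed within 1.22 times the LD median for Krt19, Spp1 and Cd24a in the liver. Over the 8 mice, 9 relations between liver and kidney level were computed, and 0 passed adjustment over the 9 (exact permutation over pairings, smallest adjusted p 0.203 for Pearson's r and 0.0964 for Spearman's rho). The smallest p were those of Clu, whose liver and kidney levels went up together (unadjusted exact permutation p = 0.0226 for Pearson and 0.0107 for Spearman). The Clu levels of the kidney fell into 3 mice from 436 to 779 FPKM and 5 mice from 123 to 179 FPKM, and because of this split no r over all 8 mice is given.

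Some genes had a profile over the 8 libraries of an organ that was close to that of a member, which is given as a description. In the liver, Cd24a was followed most closely by Sfrp1, Myl9 and Pls1 (Pearson's r 0.976, 0.975 and 0.970), and Krt8 by Rpl34, Rpl36a and Myl6 (0.994, 0.985 and 0.981). In the kidney, Krt18 was followed by Pea15a, Pgbd5 and S100a14 (0.971, 0.970 and 0.969), and Krt7 by Iffo2, Cd248 and Parp3 (0.990, 0.984 and 0.983). Each r shares the libraries and their depth, and the genes were picked as the closest of all genes tested.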

How the data were processed

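Poly(A) RNA of liver and kidney was sequenced from 4 mice per condition, and each mouse is a replicate. The authors trimmed reads with Trimmomatic, mapped them to GRCm38/mm10 with STAR 2.5.4b, removed those with a mapping quality under 10 and quantified the exons of the 32989 genes of the known canonical set of UCSC with HOMER. The values deposited are FPKM, although their columns are named RPKM. The scaling used the total of each library. In every library 100% of the values above 0 came out as whole steps of 0.5 fragment (tolerance 0.01 step). The DESeq2 test of the study on counts was not run here.

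Genes with a mean above 0.5, in units of FPKM not divided by exon length, were tested with limma 3.58.1 in R 4.3.3 (lmFit, eBayes with trend) on log2(FPKM + 0.1), a scale that understates changes of low genes. Each organ was fitted apart, and all 16 libraries were fitted together for differences between organs. Benjamini-Hochberg adjustment ran over all genes tested. Exact permutation tests were two-sided over 70 assignments. The procedure was tested on simulated data. The alternatives were another pseudocount, other filters, scalings and limma-voom, leaving out each mouse, and the mouse as a replicate block.

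Members, marker lists and tests were chosen with earlier results of these data known. All 10 members were named, the 3 genes with the smallest p per organ of the duct and tubular injury lists, and the 3 genes closest in profile to the 2 members with the smallest p per organ. Liver and kidney with the same number came from the same mouse. Their deviations from the group means correlated with 0.147 (L63), 0.117 (L65), 0.185 (L86), 0.0982 (L104), −0.0242 (A75), 0.334 (A91), 0.553 (A94) and 0.0423 (A115). RefSeq promoters were found for 5 of 10 members.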

Additional observations from a re-analysis of the deposited data

Results flagged for a closer look

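In 4 of 39 groups of 4 mice, 1 mouse lay far from the other 3 on the log2 scale by Dixon's ratio, the gap to the nearest mouse divided by the range. Chance gives about 1 in 20 such groups. In the LD kidneys, L86 stood apart for Clu (ratio 0.899, 453 FPKM against 123 to 141) and for Spp1 (ratio 0.848, 2676 FPKM against 605 to 759). In the ADV livers, A94 stood apart for Vcam1 (ratio 0.964, 29.6 FPKM against 6.93 to 7.31) and for Havcr1 (ratio 0.838, 0.257 FPKM against 0 to 0.0229). The Havcr1 group held 2 livers at 0, 1 with 1 fragment and A94 with 11, and its ratio moved with the pseudocount, from 0.638 at 0.01 to 0.901 at 1, so that it is no firm case beside the other 3, whose ratios moved little.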

How the results depend on the processing

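No member was called for ADV against LD, in either organ or for the difference between organs, under any alternative run. With all mice kept, 7 or 8 members were called between kidney and liver. The replicate block for the mouse left these counts at 7 between organs and 0 for the interaction and changed no call of a member. Leaving out 1 mouse gave 6 to 8 members between organs and 2 to 6 positive interactions, the lowest without A75. Among the settings that kept all mice or left out A115 with the median ratio, 255 values of single genes kept their direction and side of the threshold, 2 came to pass it, 1 no longer did and 11 changed sign. Those 11 were liver Clu with the median ratio (−0.031), limma-voom (−0.024) and the median ratio without A115 (−0.063), liver Sox9 with a pseudocount of 1 (0.012), kidney Havcr1 (−0.75), Vcam1 (−0.15) and Cd24a (−0.24) with the median ratio without A115, the interactions of Havcr1 (0.27) and Krt7 (0.055) with a pseudocount of 1, and kidney minus liver for Sox9 with a pseudocount of 1 (0.067) or without mitochondrial genes (0.048). The causes were not tested.

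On leaving out each mouse, log2 fold changes in the liver lay between −0.029 and 0.21 for Clu and between −0.24 and 0.26 for Sox9. In the kidney they lay between −0.57 and 1.25 for Havcr1, −0.33 and 0.37 for Krt8, −0.31 and 0.65 for Krt19, and −0.044 and 0.54 for Cd24a. The interactions lay between −1.23 and 1.05 for Havcr1, −0.72 and 0.24 for Vcam1, −0.61 and 0.41 for Krt7, −0.043 and 0.49 for Krt18, and −0.92 and 1.39 for Spp1, and kidney minus liver for Sox9 between −0.44 and 0.16. Depth limited Havcr1 and Krt7 in the liver, with at most 11 and 77.5 fragments, and Sox9, with as few as 12 fragments in a kidney.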
